A study of Mus musculus with 2 samples.

Results

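Within the macrophages of the arthritic mouse synovium, 914 cells were chosen by 3 genes, *Gpnmb* (a transmembrane glycoprotein of endosomes and lysosomes), *Ms4a7* (a membrane protein of tissue macrophages) and *Cd93* (a C-type lectin-like receptor). They were picked from 7322 macrophages that carried at least 10 unique molecular identifiers (UMIs, each standing for 1 captured mRNA molecule) of the complement genes *C1qa*, *C1qb* and *C1qc* and fewer than 5 of *Ccl17* and *Cd209a*. Each of these C1q macrophages received a score for 7 sets of 3 genes, the mean standardised log level of the set, and the members were chosen by having the *Gpnmb*, *Ms4a7* and *Cd93* set highest and at 0.5 or more. The cells came from 2 scRNA-seq libraries of CD45+CD11b+ cells sorted from hind paws on day 17 of arthritis, with 7196 (β-glucan) and 5760 (PBS) barcodes, of which 10249 passed the filters on genes and mitochondrial UMIs. Both groups were C57BL/6 mice of 7 to 10 weeks with no transgene, and each library pooled 4 mice that received 1 mg β-glucan, a fungal cell-wall polysaccharide, or PBS by intraperitoneal injection 7 days before arthritis. The study's methods give serum-transfer arthritis (K/BxN-STA) as the model, whereas the sample labels describe an antibody cocktail with LPS. One library stood for each group, so no difference between β-glucan and PBS had a replicate check, no test was run, and every interval given covers counting error only.

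Macrophages that clear dying cells, lipoproteins and red cells must break down and export what they take up, and they do so through lysosomes, lipid-binding proteins and cholesterol efflux, in which apolipoprotein E is a carrier. GPNMB and the lysosomal proton pump subunit ATP6V0D2 are known products of the MiT/TFE transcription factors, the family of MITF, which adjust lysosome number and activity. In the joint, macrophages that carry *Lyve1*, *Vsig4*, *Timd4* or *Cd163* are known as residents of the lining and of the tissue around vessels, and others descend from blood monocytes.

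The members counted 507 β-glucan and 407 PBS cells, together 12.5% of the C1q macrophages. Their share was 11.95% in the β-glucan library (exact Clopper-Pearson 95% interval, 10.99 to 12.97) and 13.21% in the PBS library (12.04 to 14.46), and of all cells kept it was 8.90% and 8.94%. The intervals overlapped, and because *Ms4a7*, a gene of the rule, itself differed between the libraries, no change in abundance was read from these shares. The members held 7144176 UMIs with β-glucan and 6216688 with PBS, at a median of 12574 and 14503 UMIs and 3920 and 4197 genes per cell. Cells of the PBS library were thus more deeply covered, as were the other C1q macrophages of that library (15945 against 13526 UMIs). Mitochondrial UMIs took a median of 3.50% and 3.63% of a member's total.

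The selection cut a range and did not isolate a separate island of cells. The score ran up to 4.39 with a median of 1.09, and the margin over the next highest set had a median of 0.713. For 54 members this margin was below 0.1, and 567 cells with a score of at least 0.5 were left out because another set was higher. The 78 cells just inside the threshold (0.5 to 0.6) and the 68 just outside it (0.4 to 0.5) carried similar levels, at 14.0 and 11.7 counts per 1e6 UMIs (CPM, summed over the cells of a group) for *Gpnmb*, 557 and 517 for *Ms4a7*, 305 and 273 for *Cd93* and 8709 and 9803 for *Apoe*. *Gpnmb*, *Ms4a7* and *Cd93* make up the score, so their like levels in adjacent score ranges follow from the binning. Of these genes, *Apoe* alone was not used by the rule. The second-highest set was most often that of *H2-Aa*, *Ccr2* and *Ciita* (247 members, 27.0%), followed by that of *Olr1*, *Pdpn* and *Rgs1* (232, 25.4%) and that of *Cav1*, *Ndrg1* and *Tppp3* (188, 20.6%). When cells were placed by 2000 variable genes without the genes of the 7 sets, 46.9% of a member's 15 nearest neighbours were members. Among all C1q macrophages 12.5% were. In the other groups the share of neighbours from the same group ran from 22.2% to 64.55%. Neighbours came from a member's own library in 72.3% (β-glucan) and 55.9% (PBS), where 57.9% and 42.1% of C1q macrophages did. Of the members' neighbours, 16.2% were cells that reached 0.5 for no set. Mean expression of the members was most like that of these unclassed cells (Pearson r across 6780 genes of 0.978) and least like that of the *Vsig4*, *S100b* and *Ecscr* cells (0.930). Those r values describe genes within the same 2 libraries, which are not independent replicates.

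Before the results, 1 source of signal has to be set apart. Of the 914 members, 35 (22 with β-glucan, 13 with PBS) carried at least 10 UMIs of marker genes of stromal cells, neutrophils, lymphocytes or mast cells. In the β-glucan library, 4 members held 4704 of the 5038 stromal marker UMIs (2744 in a single cell) and 14 members held 1735 of the 2109 neutrophil marker UMIs, whereas the PBS members held 282 and 441 in all. A doublet caller marked only 2 of the cells kept (0.0439% of the PBS library and none of the other), so it had not worked and doublets were not removed. Results that rest on the 35 cells are given with and without them. Without them the summed stromal markers stood at 48.01 CPM in the β-glucan members and 41.995 CPM in the PBS members, and the summed neutrophil markers at 56.1 and 53.8. By the same mark, 343 of the 6408 other C1q macrophages were also left out wherever members and others are compared without such cells. In addition, 7 cell barcodes occurred in both libraries, 2 of them members. Leaving these cells out took the members' genes counted below as higher with β-glucan from 150 to 158, and those counted as lower from 61 to 63. The genes at least 2-fold higher or lower in the members than in the other C1q macrophages stayed at 35 and 99. The share of members became 11.91% with β-glucan and 13.23% with PBS.

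The markers that define macrophages were present in both libraries. *Csf1r*, the receptor for M-CSF, stood at 1063 CPM in the β-glucan members and 1076 CPM in the PBS members, *Adgre1* (F4/80) at 580 and 534, *Mertk* at 386 and 345, *Cd68* at 542 and 631, and *Fcgr1* (CD64) at 65.4 and 81.6. No macrophage marker of the list was at 0. Monocyte markers apart from *Ccr2* (161 and 134 CPM) were at most 5.88 CPM, with *Ly6c2* at 0.140 and 2.90 CPM. Dendritic cell markers summed to 11.6 and 7.72 CPM, led by *Flt3*, and *Xcr1* and *Clec9a* were at 0 in the PBS members. Of 6 markers of mature osteoclasts, *Calcr* and *Ocstamp* were at 0 in the members of both libraries and *Dcstamp* was at 0 with β-glucan, while *Ctsk* reached 127 and 157 CPM and *Acp5* 14.8 and 14.3.

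*Gpnmb* (ENSMUSG00000029816, GRCm39 chr6:49013426-49047863) was measured at 165 CPM in the β-glucan members and 145 in the PBS members, against 2.1 to 13.1 CPM across the 7 other groups of C1q macrophages in either library. *Ms4a7* (chr19:11298403-11313510) stood at 698 and 907 CPM (172.5 to 298.5 elsewhere), and *Cd93* (chr2:148270798-148285546) at 393.3 and 391.5 (42.8 to 164 elsewhere). These 3 genes were what the rule used, and their separation is therefore a description. *Apoe* (chr7:19430034-19434947), which the rule did not use, reached 13607 CPM in the β-glucan members and 15619 CPM in the PBS members, while the other groups ranged from 1416 to 6211. *Ms4a14*, which lies beside *Ms4a7* (chr19:11278613-11291818), stood at 74.7 and 77.4 CPM against 16.9 to 52.5. All 5 genes were thus above every other group in both libraries, as the plot of levels by group shows.

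**Figure D1:**
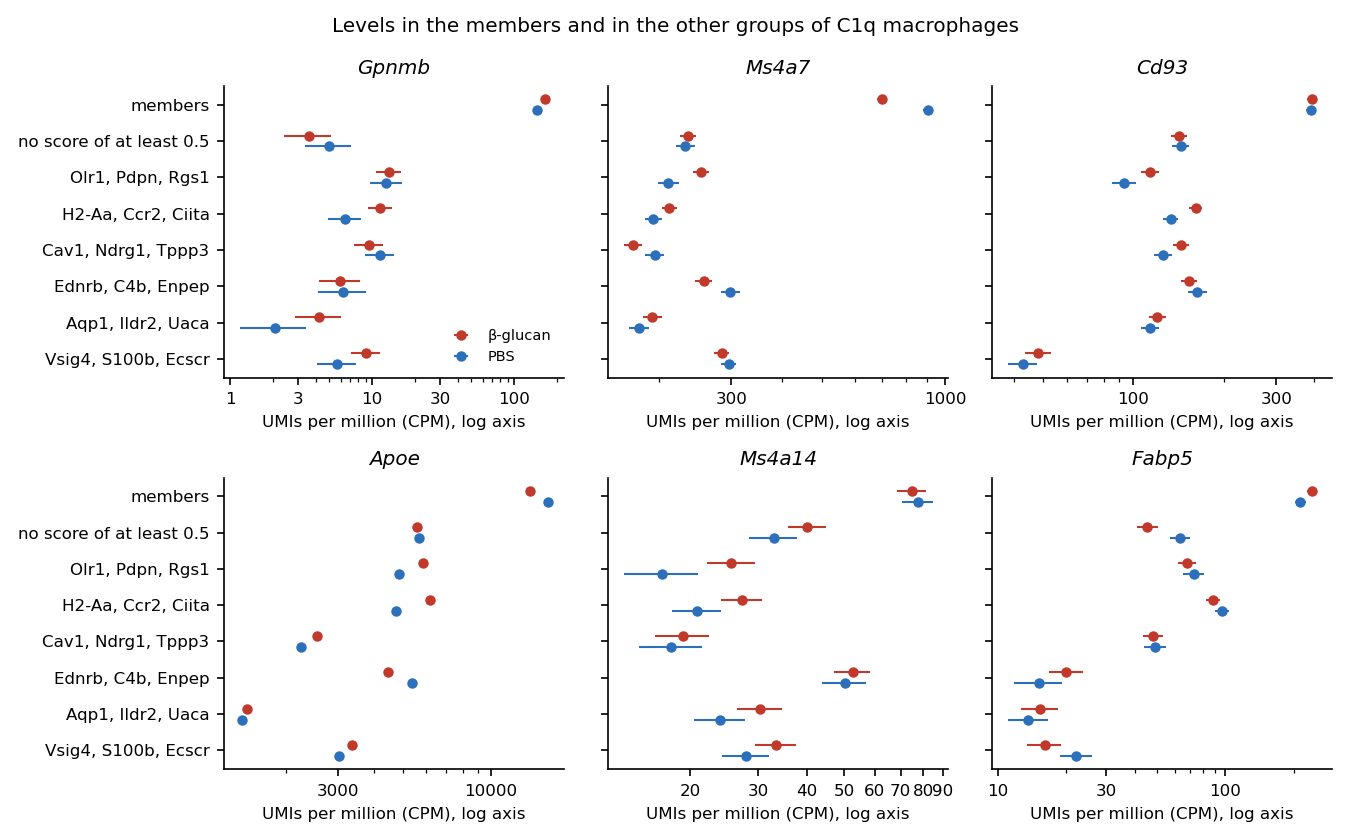
Level of 6 genes in the members and in the 7 other groups of C1q macrophages, in CPM on a log axis, with the exact 95% counting interval; points are the β-glucan and the PBS library. In both libraries the members sit to the right of every other group for each gene, from *Apoe* at 13607 and 15619 CPM to *Ms4a14* at 74.7 and 77.4 CPM.

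The share of each gene's UMIs that fell in the members is a description, since *Gpnmb*, *Ms4a7* and *Cd93* chose them. The members held 11.7% of all UMIs of the C1q macrophages and 73.0% of the *Gpnmb* UMIs (2079 of 2846), but 31.8% of those of *Ms4a7*, 30.05% of those of *Cd93* and 32.3% of those of *Apoe*. To compare shares of cells at 1 depth, each cell was thinned to 5000 UMIs, which left 881 members, 6123 other C1q macrophages and 337 B cells, with 33, 285 and 146 shallower cells left out. At that depth 40.7% of the members had a *Gpnmb* UMI, against 3.27% of the other macrophages and 0.297% of B cells, a type that should lack it (60.2%, 8.15% and 0.414% before thinning, at median depths of 13432, 14393 and 5599 UMIs). *Ms4a7* was found in 92.5% of the members, 53.0% of the others and 1.48% of B cells. For *Apoe* the shares were 97.5%, 75.5% and 51.0%, so that a UMI of this abundant gene in a cell says little, and its level is the measure to read.

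Cells were also chosen with 1 of the 3 genes left out of the set. With *Gpnmb* left out, 1219 cells were chosen, 756 of them among the 914, and *Gpnmb* stood at 82.0 CPM in them and 14.6 in the rest (log2 ratio 2.49). With *Ms4a7* left out, 887 cells were chosen, and *Ms4a7* stood at 609 and 253 CPM (1.27). With *Cd93* left out, 850 cells were chosen, and *Cd93* stood at 285 and 137 CPM (1.06). Each gene was thus higher in cells chosen by the other 2. Of the cells so chosen, 62.0%, 79.6% and 80% were among the 914 members. The rule that set these genes together was itself chosen with earlier results of these data known. The pattern is therefore a description and no independent evidence for the group.

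Across all genes, 6728 averaged 20 CPM or more over the members and the other C1q macrophages, and the log2 ratio of members over others had a median of −0.03 and an SD of 0.340. At least 2-fold higher in the members were 35 genes, 0.520% of those compared, and at least 2-fold lower were 99, or 1.47%. The same cells had been chosen by their expression, so these counts describe the members and test nothing. Of the 35 genes, 33 had the same sign in both libraries and 20 were past 2-fold in each; of the 99, 98 and 71. Leaving out the cells with other types' markers on both sides (35 members and 343 others) kept 31 of the 35 genes and 95 of the 99, and the 4 higher genes that were lost, *Col1a1*, *Col1a2*, *Col3a1* and *Dcn*, are collagen and matrix genes of fibroblasts.

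Some of the genes past 2-fold on the higher side take part in lipid and lysosome handling. *Atp6v0d2* (chr4:19876838-19922614), a subunit of the lysosomal proton pump, stood at 64.2 CPM in the members and 11.1 in the others (log2 ratio 2.54, and 2.89 and 2.01 within the β-glucan and the PBS library). *Fabp5* (chr3:10077602-10081674), a cytosolic fatty acid carrier, stood at 229 and 47.3 CPM (2.27), with 241 CPM in the β-glucan members and 215 in the PBS members. *Apoe* had a ratio of 1.84, with 1.67 and 2.05 within the libraries. *Pparg*, a nuclear receptor for fatty acids, was lower in level, at 59.0 against 26.2 CPM (1.17), and *Pla2g7*, which encodes a lipoprotein-associated phospholipase, had a ratio of 1.11. The direction was the same within each library for all of these genes.

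The listed genes of TREM2 signalling and lipid handling moved mostly the same way: of 30 genes, 23 had enough counts, 20 were higher in the members and 3 lower, and 3 were past 2-fold (*Gpnmb*, *Fabp5* and *Apoe*), with a median log2 ratio of 0.32. Without *Gpnmb*, which the rule used, 19 of 22 were higher and 2 past 2-fold (0.30). Over all genes compared, 41.9% were higher in the members, the share beside which these counts and those that follow are to be read. *Trem2*, the receptor for lipids and apolipoproteins on such cells, stood at 865 and 573 CPM (0.60), the cholesterol exporter *Abca1* at 799 and 520 (0.62) and the cholesterol esterifying enzyme *Soat1* at 180 and 115 (0.64). *Spp1* (osteopontin) stood at 537 and 293 CPM (0.87), which was the third highest level of the 8 groups. *Cd9*, a tetraspanin often listed with lipid-associated macrophages, was lower, at 481 against 849 CPM (−0.82). Among 34 lysosome genes, 33 had enough counts, 29 were higher and 4 lower, and only *Atp6v0d2* was past 2-fold (median 0.32). The proteases *Ctsb* (3486 and 1799 CPM, 0.95) and *Ctsd* (1462 and 912 CPM, 0.68), the acid lipase *Lipa* (0.61) and *Lgmn* (0.61) were examples. All 4 MiT/TFE genes were higher, by 0.36 for *Mitf*, 0.64 for *Tfec*, 0.15 for *Tfeb* and 0.03 for *Tfe3*, and none passed 2-fold (median 0.26).

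Several of the higher genes encode surface receptors and secreted or membrane-bound effectors. *Mpeg1* (perforin-2, a pore-forming protein of phagosomes) stood at 601 CPM in the β-glucan members and 545 in the PBS members, and at 193 in the other macrophages of both libraries (1.58). *Mmp14*, a membrane-bound matrix metalloproteinase, stood at 154 and 147 CPM against 56.9 (1.40). *Fcrls*, an Fc receptor-like gene, stood at 67.7 and 106 CPM against 31.4 (1.44). Here the PBS cells of the *H2-Aa*, *Ccr2* and *Ciita* group, at 79.0 CPM, were above the β-glucan members. Over the alternative settings the ratio of *Fcrls* ran from 0.82 to 1.52, so it was not past 2-fold in all of them. *Nav2* (1.50), whose span holds 2 other genes on its strand, *Clec4n* (Dectin-2, 1.27), the secreted *Thbs1* (1.32) and *Il7r* (1.29) were also past 2-fold. Within the β-glucan library *Clec4n* (0.86) and *Thbs1* (0.84) were below 2-fold, and within the PBS library they stood at 1.70 and 1.75. Of 16 *Ms4a* genes, 6 had enough counts and all 6 were higher, 3 of them past 2-fold (*Ms4a7*, *Ms4a14* and *Ms4a4a*, the latter at 159 against 74.3 CPM). Without *Ms4a7*, which the rule used, 5 of 5 were higher and 2 past 2-fold, at a median of 0.73. The members ranked first of the 8 groups for *Ms4a6c* and *Ms4a6d*, and second for *Ms4a4a* and *Ms4a6b*. These genes form a cluster of similar sequences on chromosome 19, and reads shared between such copies could shift counts among them.

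**Figure D2:**
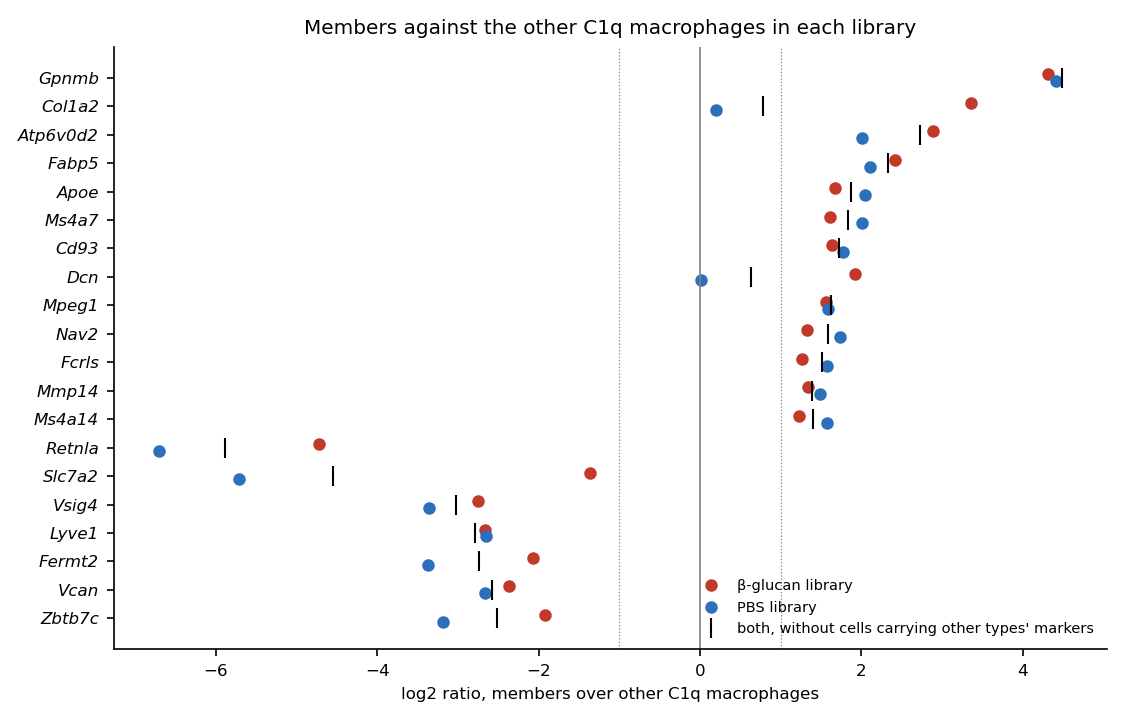
Log2 ratio of members over other C1q macrophages for the leading genes, within the β-glucan library, within the PBS library, and in both together without the cells that carry other types' markers. *Gpnmb* is farthest to the right at 4.31 and 4.41 and *Lyve1* lies at −2.67 and −2.65, while *Slc7a2* lies far apart between the libraries and *Col1a2* and *Dcn* lose their place once marked cells are left out on both sides.

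The genes that were lowest in the members included *Lyve1*, *Vsig4* and *Retnla* of the list of resident macrophage genes. *Lyve1*, a hyaluronan receptor of vessel-associated macrophages, stood at 136 CPM in the β-glucan members and 134 in the PBS members, and at 856 in the others (log2 ratio −2.66), the lowest of the 8 groups. *Vsig4*, a complement receptor of the lining, was at 45.6 and 368 CPM (−3.01), but it belongs to a competing set of the rule. The haemoglobin receptor *Cd163* stood at 96.1 and 344 CPM (−1.84), and the phosphatidylserine receptor *Timd4* at 2.40 and 25.4 (−3.41). *Retnla*, a secreted product of macrophages exposed to IL-4, was at 13.6 CPM in the β-glucan members, at 10.9 in the PBS members and at 714 in the others (−5.85, with −4.72 within the β-glucan library and −6.71 within the PBS library, while the others had −1.67 for β-glucan over PBS). *Slc7a2*, a carrier of cationic amino acids, was low as well (−4.40), yet its ratio was −1.36 within the β-glucan library and −5.72 within the PBS library. In both libraries the members held little of it, at 9.10 and 6.43 CPM, whereas in the other macrophages its log2 ratio of β-glucan over PBS was −3.86. The matrix genes *Fn1* (772 against 2349 CPM, −1.61) and *Vcan* (−2.49), the adhesion adaptor *Fermt2* (−2.61) and *Zbtb7c* (−2.41) were also lower.

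Not all genes of resident macrophages were low. Of 18 listed, 17 had enough counts, 6 were higher and 11 lower, 5 of them past 2-fold (median −0.25). *Selenop*, a selenium carrier, stood at 3303 against 2014 CPM (0.71) and *Igf1* at 327 against 182 (0.85), while the folate receptor *Folr2* stood at 257 against 372 (−0.53). Among 30 genes of efferocytosis and scavenging, 22 had enough counts, 14 were higher and 8 lower, with *Cd163* past 2-fold downward and only *Cd93*, a gene of the rule, upward (median 0.09). *Stab1* (0.82), *Mertk* (0.52) and *Mrc1* (0.41) were higher in the members. Iron and haem genes gave 7 higher and 2 lower of 9 (median 0.32), with ferritin light chain *Ftl1* at 5680 and 3481 CPM (0.71) and *Fth1* at 8254 and 6198 (0.41). Complement genes were divided (5 higher, 6 lower, median −0.09), and *Vsig4* and *C4b*, both past 2-fold downward, are genes of competing sets.

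Monocyte genes were mostly lower, with 1 of 7 higher and 6 lower (median −0.71), although *Thbs1*, the higher one, was past 2-fold. *S100a6* (−0.71) and *Ccr2* (−0.93, a gene of a competing set) were examples. For MHC class II, 1 of 7 genes was higher and 6 lower, 4 of them past 2-fold (median −1.02), with *H2-Aa* at 490 against 995 CPM. The others include the group chosen for *H2-Aa*, at 4369 CPM, and the members ranked second of the 8 groups for *H2-Aa*, *H2-Ab1* and *Cd74*. The rule also keeps cells that score higher for the *H2-Aa* set out of the members. The part of each in this contrast was not tested. Immediate-early and stress genes were lower for 21 of 22 (median −0.34), 5 past 2-fold. *Klf2* (160 against 344 CPM, −1.11), *Klf4* (−1.05), *Hspa1a* (−1.26) and *Hspa1b* (−1.67) were lowest in the members among the 8 groups. Glycolysis genes were lower for 13 of 15 (median −0.37), with *Gapdh* at −0.46, and cell cycle genes for 5 of 5 (median −0.46), with *Mki67* at 17.1 against 30.1 CPM.

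The other lists had medians from −0.28 to 0.34. Fc receptor genes gave 5 higher of 6 (median 0.34), led by *Fcrls* and *Fcgr1* (0.75). Toll-like receptor genes gave 9 higher of 11 (median 0.22), among them the endosomal RNA sensor *Tlr7* (0.71). Osteoclast genes gave 12 higher of 16 (median 0.18), with *Atp6v0d2* and *Mmp14* past 2-fold and *Ctsk* at 0.12. Dectin and Syk-Card9 genes gave 7 higher and 5 lower of 12 (0.10), macrophage transcription factors 13 and 8 of 21 (0.08), matrix genes 7 and 8 of 15 (−0.08), interferon-stimulated genes 1 and 3 of 4 (−0.15) and sex-linked genes 3 and 1 of 4 (0.11). Among 17 cytokine and chemokine genes, 8 were higher and 9 lower (median −0.28), with *Cxcl16*, a scavenger chemokine, at 249 and 149 CPM (0.74) and *Tnf* at 13.6 and 28.6 (−1.07). The medians are to be read beside that of all genes (−0.03).

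**Figure D3:**
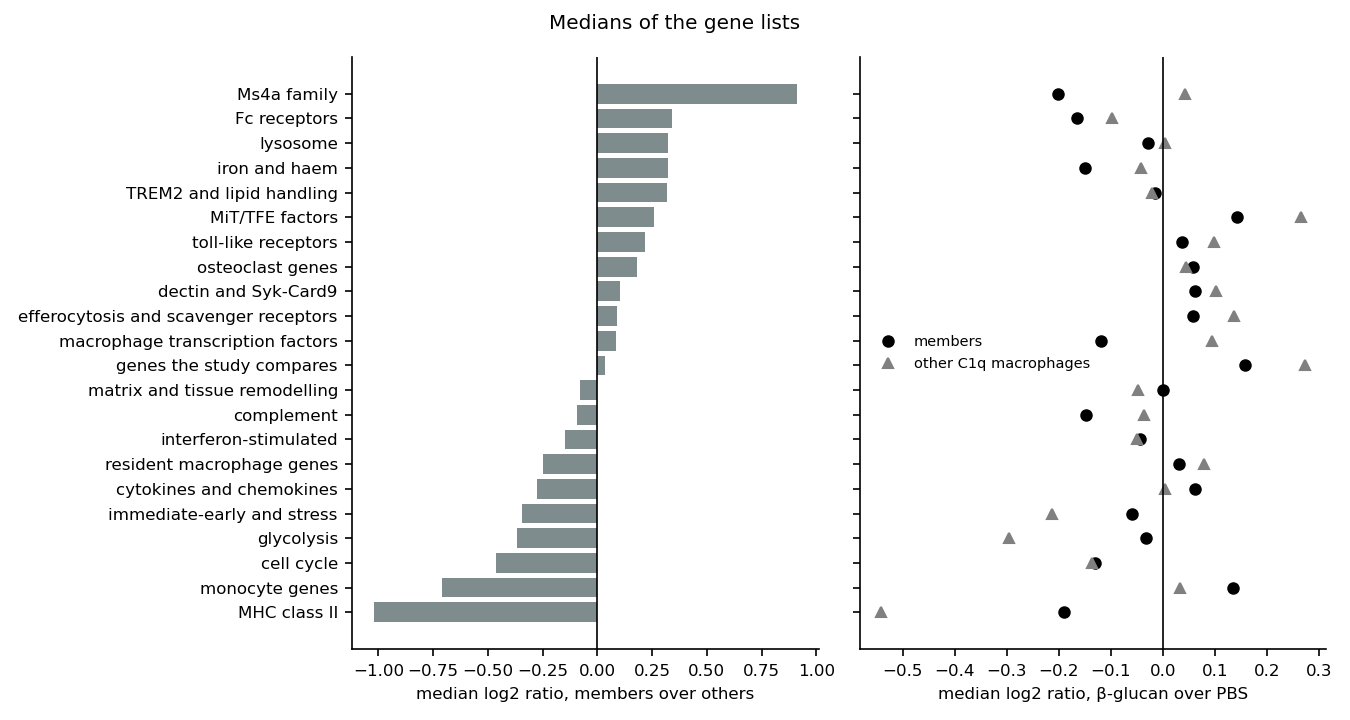
Medians of 22 gene lists as log2 ratios: bars on the left give members over other C1q macrophages, and on the right circles give β-glucan over PBS in the members and triangles the same in the other C1q macrophages. On the left the *Ms4a* family, which holds the selection gene *Ms4a7*, is highest (0.91) and MHC class II lowest (−1.02), while on the right the members' medians lie between −0.20 and 0.16.

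Several levels were graded along the score. With the 35 members and 343 others that carry other types' markers left out, *Apoe* stood at 2509 CPM in non-members with a score below 0, at 6067 between 0 and 0.5, and at 8653 in those at 0.5 or more for which another set was higher. In the members, ordered by score into 4 bins of like size, it stood at 9385, 13653, 13399 and 21923 CPM. *Fabp5* went from 69.8 CPM in the lowest bin of members to 493 in the highest, *Atp6v0d2* from 22.5 to 129 and *Mpeg1* from 369 to 888. *Lyve1* went the other way, from 244 to 26.4 CPM, as did *Cd163*, from 141 to 39.5. *H2-Aa* went up, from 260 to 704 CPM. It belongs to a competing set that must score below the members' own, so the rule allows more of it at higher scores. *Vsig4*, also of a competing set, stood at 38.8, 89.2, 42.1 and 23.9 CPM in the same bins of members. The part of the rule in the rise of *H2-Aa* was not tested, and that rise is not read as a separate observation. Other genes climbed over the 3 bins of non-members but not steadily over the 4 of members. *Mitf* stood at 505, 618 and 643 CPM in the former and at 644, 729, 747 and 683 in the latter. *Ms4a14* stood at 18.3, 44.0 and 63.6 and then at 74.4, 70.6, 70.3 and 92.1, and *Fcrls* at 25.04, 36.6 and 55.3 and then at 92.0, 90.2, 74.2 and 95.2. The lowest bin of the members and the cells excluded by a higher competing set had similar levels of *Mpeg1* (369 and 363 CPM) and *Atp6v0d2* (22.5 and 24.2), while the excluded cells held more *Gpnmb* (40.7 against 20.6), *Fabp5* (95.6 against 69.8), *H2-Aa* (1374 against 260 CPM), *Vsig4* (216 against 38.8) and *Cd163* (289.5 against 141), and less *Fcrls* (55.3 against 92.0). *H2-Aa* and *Vsig4* belong to the competing sets that excluded those cells.

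**Figure D4:**
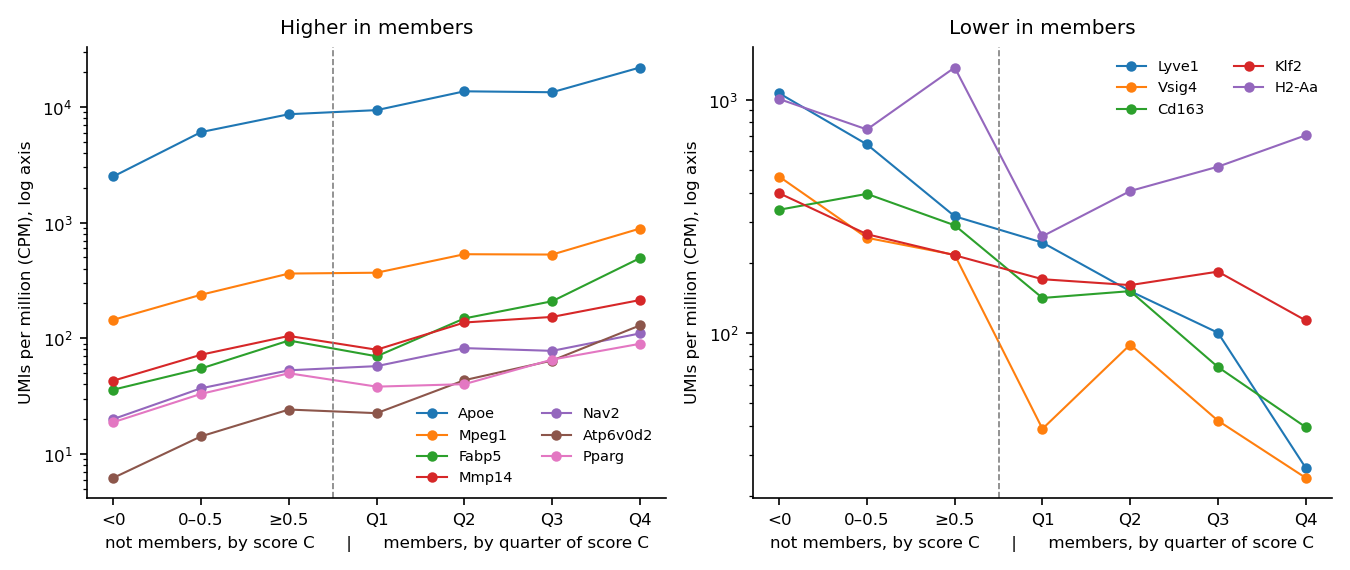
Level in CPM (log axis) by score of the *Gpnmb*, *Ms4a7* and *Cd93* set: 3 bins of non-members to the left of the dashed line and 4 bins of members to the right, both libraries together, without the 35 members and 343 others that carry other types' markers. *Apoe* climbs from 2509 to 21923 CPM and *Fabp5* to 493, whereas *Lyve1* drops from 1065 to 26.4.

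Because *Mitf* and its relatives are known to act through E-boxes, the 250 bases upstream of the start of genes were searched. The genes taken were those of the 35 higher in the members that stayed past 2-fold without the marked cells. Genes past 2-fold only without those cells were not searched. Both strands were read in the RefSeq promoters of GRCm38.p6, a build other than that of the counts. Of 31 genes, 21 had a promoter in the table. CACGTG occurred in none of the 21 and in 6.86% of the 27025 genes with a promoter, and CATGTG in 4 of the 21 (19.0%) and in 13.8% of all. A gene was counted if any of its promoters held the letters. Read on the other strand, the second hexamer is CACATG. The longer forms TCATGTGA, which holds CATGTG, and GTCACGTG, which holds CACGTG, occurred in none of the 21 and in 0.984% and 2.11% of all genes with a promoter. The 4 windows that hold CATGTG are shown for the reader to see its context, 5′ to 3′ on the strand of the gene, with the hexamer in capitals:
Nav2, chr7:48958989-48959016 (+), 72 bases upstream: ttgtgaggcacCATGTGaactgcactgg
Lgals3bp, chr11:118401972-118401999 (−), 28 bases upstream: gcagcctctgtCATGTGttttctgaaaa
Aoah, chr13:20794056-20794083 (+), 45 bases upstream: acctcaaggttCATGTGgtcactgactt
Ms4a4a, chr19:11375380-11375407 (+), 96 bases upstream: tttaaagaagcCACATGtacacaactag
A match is a description of letters, and the searched windows hold neither distal nor intronic sequence.

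Comparison of the β-glucan with the PBS members asked whether the cells of trained mice differed within this group. Of 6649 genes averaging 20 CPM or more over both libraries, 3630 were higher with β-glucan and 3019 lower, with a median log2 ratio of 0.02 and an SD of 0.274. A ratio of at least 0.5 was reached by 150 genes (2.26%) and of at most −0.5 by 61 (0.917%). Leaving out the 35 cells kept 121 of the 150 and 56 of the 61. The 150 genes had a median of 0.61 in the members and 0.34 in the other C1q macrophages of the same 2 libraries, and the 61 had −0.65 and −0.34. In those macrophages 30 of the 150 and 16 of the 61 were past the fold. Ratios moved with the length of genes. The median was −0.10 for genes that span under 10 kb, −0.03 from 10 to 30 kb, 0.06 from 30 to 100 kb and 0.15 from 100 kb, and the genes of 100 kb or more took a median of 19.9% of the UMIs of a β-glucan member and 17.9% of those of a PBS member. In 353 cells per library paired on that share, 98 genes stood at 0.5 or more and 85 at −0.5 or less, at a median of −0.00. Pairing also left fewer cells, and the part of each in these counts was not tested.

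*Mitf* (chr6:97783950-97998323) stood at 872 CPM in the β-glucan members and 492 in the PBS members, a log2 ratio of 0.83 (0.76 to 0.89). The ratio was 0.86 without the 35 cells and 0.75 in the other C1q macrophages, and *Mitf* was higher with β-glucan in each of the 7 other groups. The difference was thus not particular to the members, and *Mitf* spans 214374 bases. *Zeb2*, a zinc-finger transcription factor of macrophages that spans 133821 bases, stood at 3520 and 2214 CPM (0.67), and *Pdgfc* at 305 and 190 (0.68). Of the 16 genes that the study compared between β-glucan and PBS in larger groups of these cells, 14 were higher and 2 lower in the members, with a median of 0.16 (0.27 in the other C1q macrophages), and *Mitf* alone was past 0.5. In those larger groups the study reported *Nr4a1* and *Klf2* as lower, *Clec5a* as not altered and the rest as higher with β-glucan. In the members *Nr4a1* and *Csf1r* had the other sign, the latter close to 0. That list was chosen by the study on these libraries, so shared signs are no independent evidence. *Myo5a* stood at 0.42, *Nr4a1* at 0.41 (−0.00 without the 35 cells), *Mef2c* at 0.28, *Elmo1* at 0.23, *Vav3* at 0.19, *Map3k5* and *Hpgds* at 0.17, *Mapk14* at 0.14, *Rock2* and *Ern1* at 0.12, *Cx3cr1* at 0.10, *Clec5a* at 0.01, *Plekhg5* at 0.00, *Csf1r* at −0.02 and *Klf2* at −0.40.

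Both libraries were cut at the same score of *Gpnmb*, *Ms4a7* and *Cd93*, so their ratios between the libraries are partly set by the selection. *Gpnmb* had a ratio of 0.19 (0.07 to 0.32), *Cd93* 0.01, *Ms4a14* −0.05 and *Fabp5* 0.17. *Ms4a7* was lower with β-glucan at −0.38 (−0.43 to −0.32) and *Apoe* at −0.20 (−0.21 to −0.19), where the other C1q macrophages had 0.02 and 0.18. All 6 measured *Ms4a* genes were lower with β-glucan (median −0.20, 0.04 in the others), but only *Ms4a4a*, at 126 and 198 CPM, was past −0.5 (−0.65), and it stood at −0.52 in the others. *Atp6v0d2* had a larger ratio than these genes, at 80.6 CPM in the β-glucan members and 45.4 CPM in the PBS members (0.83, interval 0.62 to 1.04). Without the members that carry other types' markers the ratio was 0.84. Only 25.6% of the β-glucan members and 20.4% of the PBS members had a UMI of *Atp6v0d2*, so these levels came from a minority of the members. A single member held 43 of the 576 UMIs with β-glucan and 20 of the 282 with PBS. The highest members, as many as are counted for *S100a9* below, held 22.6% and 25.5%. In the other C1q macrophages *Atp6v0d2* was at −0.05 (−0.23 to 0.12), and it was higher with β-glucan in 2 of the 7 other groups. The difference between those ratios has no replicate and was not tested.

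Inflammatory genes at the top of the β-glucan side came from few cells. *S100a9*, a neutrophil alarmin, stood at 114 CPM in the β-glucan members and 5.15 CPM in the PBS members (log2 ratio 4.47), but 73.4% of its 816 UMIs with β-glucan lay in 5 members, and without the 35 cells the ratio was 0.34. *S100a8* went from 2.92 to 0.50 and *Dcn*, a matrix proteoglycan, from 3.70 to 0.50. *Il1b*, at 120 and 32.3 CPM, turned from 1.89 to −0.84 (−1.36 to −0.33), and its PBS counts were concentrated too, with 93.5% of 201 UMIs in 5 members. *Cxcl2* went from 1.18 to 0.10, and *Sparc* from 2.69 to 0.80. Members with any UMI of *S100a9* were 6.90% with β-glucan and 3.69% with PBS. For these 6 genes the ratio over all members was therefore set by a small number of cells. Only that of *Sparc* stayed well past 0.5 without them, and another setting took it to 0.30.

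Among the genes that kept their ratio, *Fgd4*, an exchange factor for the GTPase CDC42, stood at 376 CPM in the β-glucan members and 185 CPM in the PBS members (log2 ratio 1.02, interval 0.92 to 1.12), and kept its ratio without the 35 cells. *Cdc42ep3*, a CDC42 effector, stood at 77.3 and 38.4 CPM (1.01), *Nfkbiz*, an inducible regulator of NF-κB targets, at 174 and 88.3 (0.98) and *Rasgrp3*, a Ras and Rap exchange factor, at 181 and 94.1 (0.94). In the other C1q macrophages the same genes had ratios of 0.87, 0.55, 0.34 and 0.39. Of the immediate-early genes, *Jun* stood at 194 and 116 CPM (0.74) and *Egr1* at 71.1 and 43.9 (0.70), where the others had 0.24 and −0.06, and *Fos* had 0.41. Of 20 immediate-early and stress genes, 9 were higher and 11 lower with β-glucan, 3 past the fold each way (median −0.06), so these genes did not move together. The 3 on the lower side were *Nr4a2* (−1.18), *Fosl2* (−0.85) and *Klf4* (−0.65).

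On the lower side, glucocorticoid-responsive genes stood among the leading 10. *Fkbp5*, a co-chaperone of the glucocorticoid receptor, stood at 107 CPM in the β-glucan members and 229 CPM in the PBS members (−1.10, interval −1.23 to −0.97), and *Tsc22d3* (GILZ) at 233 and 381 (−0.71). *Cebpb*, a transcription factor of myeloid cells, stood at 199 and 391 CPM (−0.98). Without the 35 cells these ratios were −1.11, −0.71 and −1.12, and in the other C1q macrophages −0.69, −0.46 and −0.65. The other 7 were *Fosl2*, *Cytip* (−0.82), *Pde3b* (−0.78), *Rgcc* (−0.76), the urokinase receptor *Plaur* (−0.75), *Jdp2* (−0.67) and the cell cycle kinase *Wee1* (−0.66). No list of glucocorticoid targets was tested, and the mention of that class rests on 2 genes.

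**Figure D5:**
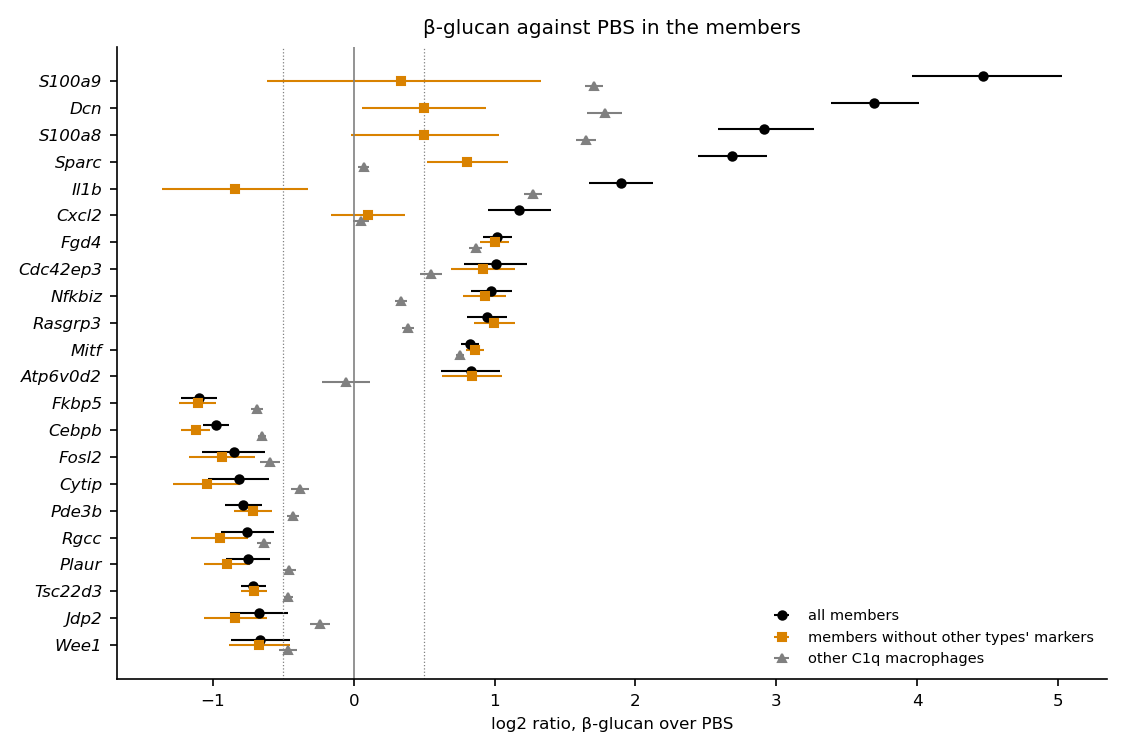
Log2 ratio of β-glucan over PBS with its exact 95% counting interval for leading genes: circles are all 914 members, squares the 879 left without cells that carry other types' markers, triangles the other C1q macrophages. *S100a9*, *Dcn* and *Il1b* fall back from 4.47, 3.70 and 1.89 once 35 cells are left out, while *Mitf* (0.83) and *Fkbp5* (−1.10) hardly move.

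By list, 260 different genes of the members had enough counts for β-glucan over PBS, and 14 of them (5.38%) were past the fold upward and 10 (3.85%) downward, against 2.26% and 0.917% of all genes. The lists were written with earlier results of these data known and hold genes that the study reported from these libraries. The higher shares are therefore no evidence that list genes differ more. *Il1b*, *Cxcl2* and *Sparc*, whose ratios were set by few cells, are among the 14. TREM2 and lipid handling gave 0 of 23 (9 higher, 14 lower, median −0.02), and the lysosome 1 of 34, *Atp6v0d2* (12 higher, 22 lower, −0.03). The 4 MiT/TFE genes were all higher (median 0.14, 0.27 in the others), with *Mitf* alone past the fold. Osteoclast genes gave 10 higher and 6 lower, with *Mitf* and *Atp6v0d2* past the fold (median 0.06), while *Ctsk* stood at −0.31. Fc receptor genes gave 1 higher and 5 lower (median −0.17), with *Fcrls* at −0.64. MHC class II genes were lower in 7 of 7, none past the fold, at a median of −0.19 in the members and −0.54 in the other C1q macrophages. Among 16 cytokine and chemokine genes 5 were past the fold upward (median 0.06): *Il1b* and *Cxcl2*, which rested on few cells, and *Ccl3* (0.85), *Ccl8* (0.68) and *Pdgfc*. Of 21 macrophage transcription factors, *Irf4* (0.87, at 36.7 and 20.1 CPM) and *Zeb2* were past the fold upward and *Runx3* (−1.17), *Cebpb* and *Klf4* downward (median −0.12). Of 16 resident macrophage genes, *Sparc*, *Ccl8* and *Vsig4* were past the fold upward. Of the 15 matrix genes, *Sparc* was past the fold upward, and *Thbs1* (−0.85, −1.73 without the 35 cells) and *Plaur* downward (median 0.00).

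In the lists left, medians lay between −0.15 and 0.14. Efferocytosis and scavenger genes were higher with β-glucan in 14 of 22 (median 0.06), Toll-like receptor genes in 7 of 11 (0.04), resident macrophage genes in 9 of 16 (0.03), monocyte genes in 4 of 6 (0.14), glycolysis genes in 4 of 15 (−0.03), iron and haem genes in 2 of 9 (−0.15), complement genes in 3 of 10 (−0.15), interferon-stimulated genes in 2 of 4 (−0.04), cell cycle genes in 0 of 4 (−0.13) and sex-linked genes in 2 of 4 (−0.01). Dectin and Syk-Card9 genes were higher in 8 of 12 (0.06), with *Clec4n* past the fold downward at 78.8 CPM in the β-glucan members and 115 CPM in the PBS members (−0.55). None of the genes for toll-like receptors, efferocytosis, iron, glycolysis, cell cycle or interferon response was past the fold in the members.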

How the data were processed

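The authors deposited UMI counts per gene and barcode for 2 droplet libraries (10x 3′ chemistry), made with Cell Ranger 7.0.0. The submitters' processing notes name GRCm39 and mm10, and whether intronic reads were counted is not given in the sources used here. No column lacked a sample. The libraries held 81611849 UMIs (β-glucan) and 73874602 (PBS). Barcodes with under 500 genes or over 10% mitochondrial UMIs were left out. For each gene of a set, log1p of UMIs per 10000 was standardised over the C1q macrophages, and the means over 7 sets gave the scores. Counts were summed over the cells of a group and library and scaled to CPM, and log2 ratios were given an exact conditional binomial 95% interval. Coordinates came from the GRCm39 annotation (31870 of 32524 genes matched).

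Genes were compared at a mean of 20 CPM or more, and counted past a log2 ratio of 1 between macrophage groups and 0.5 between libraries. The genes named were the 5 markers, the 12 highest and 8 lowest ratios of members over others at 50 CPM or more, the 10 highest and 10 lowest of β-glucan over PBS at 50 CPM or more with 1 sign below and above the median score, the 16 genes the study compares, and examples from 23 gene lists; some items are not reported here. Examples beyond this rule, among them *Timd4*, *Klf4*, *Jun*, *Egr1*, *Il7r* and *Tlr7*, were chosen after their values were seen. The members, lists and rules were chosen with earlier results of these data known. The calculation of the interval and the ratios was checked on simulated sums: for β-glucan over PBS in the members (6641 genes) 100% of 198 changed genes had the right sign and 95.5% of intervals held the true ratio, and for members over others (6745 genes) 100% of 200 and 95.2%. The simulated sums held counting error only, which is what the interval assumes, and no spread between cells or mice. They therefore check the calculation and do not show how well the intervals cover these libraries. Alternatives changed the cell filters, the C1q and score thresholds, the standardisation, the genes of the set, depth (thinning), the CPM minimum and the scaling (TMM of edgeR 4.0.16, R 4.3.3). Leaving out cells with other types' markers, or with barcodes found in both libraries, was added after seeing the data. Python 3.11.15, scanpy 1.11.5, scipy 1.17.1 and pandas 2.3.3 were used.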

Additional observations from a re-analysis of the deposited data

Results flagged for a closer look

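Of the 211 genes past the fold between β-glucan and PBS in the members, 12 had the other sign in the other C1q macrophages, and for 4 of these both counting intervals lay off 0. *Plxdc2*, a plexin domain gene that spans 403626 bases, had a log2 ratio of 0.88 in the members (0.79 without the 35 cells that carry other types' markers) and −0.26 (−0.33 to −0.19) in the others. *Cspg4*, which encodes the proteoglycan NG2, had 0.57 in the members (0.60 without those cells) and −0.10 (−0.15 to −0.06) in the others. *Vsig4*, a gene of a competing set in the selection, had 0.54 in the members (53.3 CPM in β-glucan, 36.7 CPM in PBS members) and −0.07 (−0.10 to −0.04) in the others. *Clec4n*, the gene of Dectin-2, had −0.55 in the members and 0.29 (0.20 to 0.38) in the others. With 1 library per group, the difference between members and others was not tested for any of these genes.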

How the results depend on the processing

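No paired analysis was possible because each group had 1 library. The share of members (11.95% with β-glucan, 13.21% with PBS) became 13.93% and 14.97% at a score of at least 0.3, 6.69% and 7.47% at 1, 9.71% and 11.5% with a margin of 0.25, and 16.1% and 17.4% with *Gpnmb* left out of the set. The 35 genes at least 2-fold higher in the members became 21 with *Gpnmb* left out and 83 at a minimum of 5 CPM. The 99 lower became 253 at 5 CPM and 48 at 50 CPM. The 150 genes higher with β-glucan became 246 at a score of 1, 474 at 5 CPM, 67 at 50 CPM and 98 with cells paired on the share of long genes (353 per library). The 61 lower became 99 at a score of 1, 219 at 5 CPM and 27 at 50 CPM. Pairing took the lower genes to 85, which turned 150 against 61 into 98 against 85. The CPM minimum changes how many genes are compared, a score of 1 or pairing sums fewer cells, and for *Gpnmb* left out the cause was not tested.

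*Il1b* turned to −0.84 (β-glucan over PBS) without the members that carry other types' markers. *Col1a2* and *Dcn* turned to −1.59 and −1.73 (members over others) with *Gpnmb* left out, and the cause was not tested. Smaller ratios changed sign more often. Between libraries, 13 of 41 genes had the other sign in at least 1 setting (39 of 779 values), and apart from *Il1b* these were genes with a ratio of at most 0.41 in size. The medians of 17 of 23 lists between libraries did so too (57 of 483 values), all of at most 0.19 in size, so no direction is to be read from most list medians between libraries. *Mitf* ranged from 0.66 to 0.95, *Fkbp5* from −1.22 to −1.02, *Apoe* from −0.34 to −0.07 and *Ms4a7* from −0.49 to −0.33 between libraries, and *Gpnmb* from 2.49 to 4.84 in members over others. Depth limits the genes near 20 CPM most, and the lack of a replicate limits every comparison between libraries.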

Other observations

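Members with and without a *Gpnmb* UMI differed in other genes, although this split was chosen after seeing the data and uses a gene of the selection. With the 35 cells left out and each cell thinned to 5000 UMIs, 345 members had a *Gpnmb* UMI (200 with β-glucan, 145 with PBS) and 502 had none (266 and 236). In those with one, *Atp6v0d2* stood at 98.0 CPM and in those without at 38.2 (log2 ratio 1.36), and *Pparg* (1.31), *Fabp5* (1.12), *Spp1* (0.85), *Ctsd* (0.73), *Mmp14* (0.71), *Lpl* (0.69) and *Apoe* (0.58) were higher too. *Cd163* (−1.02), *Slamf9* (−0.89) and *Hpgd* (−0.79) were lower. *Mitf* was close to even, at 0.08. *Cd93*, another gene of the selection, stood at −0.29. The genes named are examples from 3836 compared.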
